A study of Homo sapiens with 3 samples.

Results

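The Dishevelled genes DVL1, DVL2 and DVL3 and 7 further genes of the core Wnt pathway, AXIN1, AXIN2, CTNNB1, APC, GSK3B, LEF1 and TCF7L2, were examined for binding of the CXXC protein Idax. The 10 genes were represented by 11 transcription start sites on 7 chromosomes (APC by an upstream and a downstream start), and every peak with at least 1 bp within 5 kb of a start site was taken. This gave 0 of the 38 peaks of the DNA-binding mutant and 16 of the 17089 peaks of wild-type Idax, or 0.0936% of the wild-type list.

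The peaks came from chromatin immunoprecipitation followed by sequencing (ChIP-seq) in stable lines of HEK293T, a line of human embryonic kidney origin that carries the large T antigen of a monkey polyomavirus. One line carried Myc-IdaxDBM, a Myc-tagged Idax with mutated DNA binding, one carried wild-type Myc-Idax and one an empty vector. An anti-c-Myc agarose gel was used on all of them. The mutant and the wild-type list were each called over the empty-vector cells, and 1 list per construct was analysed, although the design text names 2 replicates per condition. No value below therefore has a replicate error, and no test between constructs was possible. Each construct sat in its own line, and neither the promoter driving it nor whether a line was 1 clone is stated in the sources used here. The number of reads behind a peak is unknown.

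Wnt ligands act through Frizzled and LRP receptors, which recruit Dishevelled proteins to the membrane. Without a ligand, a destruction complex built on the axin scaffolds, with APC and the kinase GSK3B, marks beta-catenin for degradation. With a ligand the complex is inhibited, and beta-catenin enters the nucleus and acts with factors of the TCF/LEF family. Idax, the product of CXXC4, was first described as a protein that binds Dishevelled and inhibits this pathway. Its CXXC zinc finger binds DNA that contains unmethylated CpG.

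Because that domain reads CpG, the 250 bases before the start are shown for 6 of the genes, with every CpG in capitals. They were chosen to set the 3 Dishevelled genes beside each other, and to set AXIN1, the occupied start site of lowest score, beside CTNNB1 and GSK3B, which had high scores. The sequences are those of RefSeq and have GRCh38.p14 positions. All peak positions further on are on hg19, and the 2 sets of coordinates cannot be read against each other.
DVL1 (GRCh38.p14 chr1:1349419-1349668, - strand): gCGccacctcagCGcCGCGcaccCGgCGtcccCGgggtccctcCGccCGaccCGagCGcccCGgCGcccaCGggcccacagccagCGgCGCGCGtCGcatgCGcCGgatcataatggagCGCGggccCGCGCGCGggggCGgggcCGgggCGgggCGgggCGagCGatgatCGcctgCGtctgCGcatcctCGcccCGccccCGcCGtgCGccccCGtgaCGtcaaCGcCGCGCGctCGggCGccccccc
DVL2 (GRCh38.p14 chr17:7234518-7234767, - strand): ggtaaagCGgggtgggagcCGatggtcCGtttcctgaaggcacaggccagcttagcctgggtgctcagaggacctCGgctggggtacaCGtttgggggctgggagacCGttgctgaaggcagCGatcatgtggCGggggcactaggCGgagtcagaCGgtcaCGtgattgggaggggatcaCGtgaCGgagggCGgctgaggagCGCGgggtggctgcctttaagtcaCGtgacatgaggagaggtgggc
DVL3 (GRCh38.p14 chr3:184155127-184155376, + strand): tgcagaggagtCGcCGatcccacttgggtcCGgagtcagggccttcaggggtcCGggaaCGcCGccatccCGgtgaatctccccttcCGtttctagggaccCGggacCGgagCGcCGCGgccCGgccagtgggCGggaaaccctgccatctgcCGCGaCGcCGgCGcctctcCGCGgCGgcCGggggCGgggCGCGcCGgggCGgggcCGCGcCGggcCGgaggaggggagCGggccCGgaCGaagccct
AXIN1 (GRCh38.p14 chr16:352724-352973, - strand): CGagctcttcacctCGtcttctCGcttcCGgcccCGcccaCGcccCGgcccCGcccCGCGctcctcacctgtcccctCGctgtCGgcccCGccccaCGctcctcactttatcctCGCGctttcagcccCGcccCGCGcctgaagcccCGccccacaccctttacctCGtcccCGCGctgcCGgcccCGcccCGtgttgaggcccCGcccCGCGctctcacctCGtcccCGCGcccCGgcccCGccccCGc
CTNNB1 (GRCh38.p14 chr3:41199255-41199504, + strand): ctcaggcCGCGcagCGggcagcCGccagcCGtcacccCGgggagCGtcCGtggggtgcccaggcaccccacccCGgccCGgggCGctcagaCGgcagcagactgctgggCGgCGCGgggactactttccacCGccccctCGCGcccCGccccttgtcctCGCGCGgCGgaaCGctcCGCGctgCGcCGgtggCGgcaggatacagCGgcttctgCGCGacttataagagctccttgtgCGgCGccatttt
GSK3B (GRCh38.p14 chr3:120094448-120094697, - strand): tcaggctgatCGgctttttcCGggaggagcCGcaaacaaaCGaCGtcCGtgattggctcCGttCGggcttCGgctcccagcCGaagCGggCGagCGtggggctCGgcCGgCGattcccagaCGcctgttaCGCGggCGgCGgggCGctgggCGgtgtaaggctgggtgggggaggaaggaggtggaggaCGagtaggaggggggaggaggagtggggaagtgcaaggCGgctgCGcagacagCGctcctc

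Wild-type Idax had a peak at 10 of the 11 start sites and at 9 of the 10 genes. DVL3 was the exception. Over the 24 chromosomes' span, 5.65% of 299575 positions set 10 kb apart had a wild-type peak within 5 kb, and among 1893 such positions within 1 Mb of these start sites the share was 13.6%. The start site itself lay inside a peak at 9 of the 11 sites and at 8 of the 10 genes, against 0.697% of positions. These positions are mostly not promoters, so the comparison describes start sites against the genome at large. Start sites of other genes were not analysed here, so none of this was shown to be particular to Wnt genes.

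**Figure D1:**
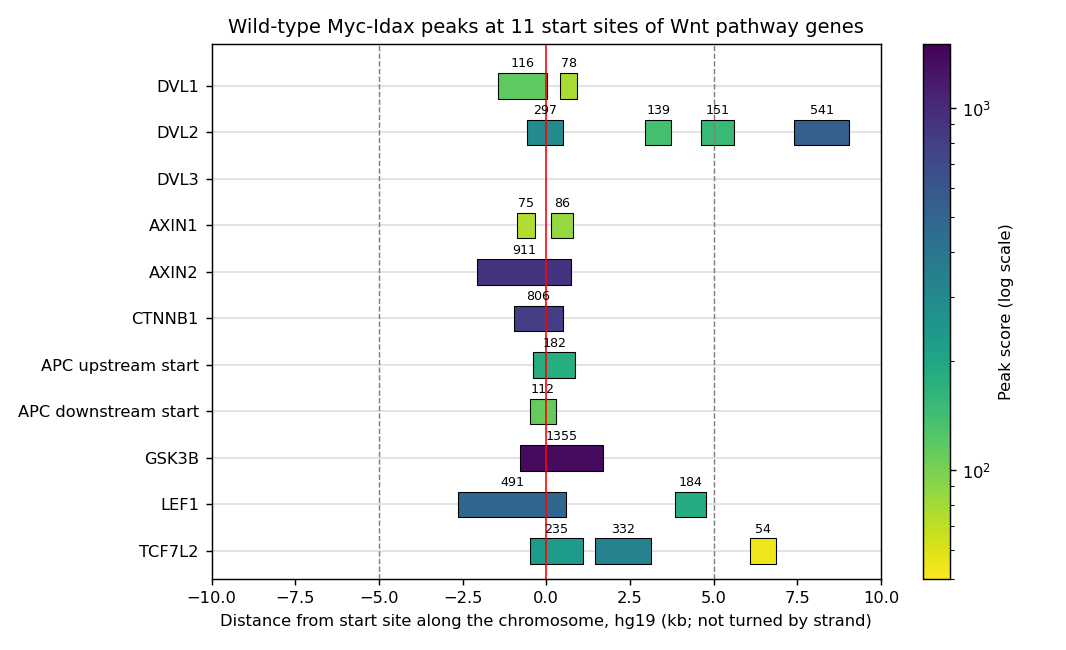
Wild-type Myc-Idax peaks (boxes) around each of the 11 start sites (rows), by distance from the start site in kb along the chromosome, with the score printed above each box and shown by colour on a log scale. The red line marks the start site and the dashed lines the 5 kb limits. DVL3 has no box, the 2 AXIN1 boxes flank the start site without covering it, and the darkest box is that of GSK3B with a score of 1355.

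The mutant list had no peak within 5 kb of any of the 11 start sites. Across the genome 0.0137% of positions had one, so with 38 peaks in the list a count of 0 among 11 sites cannot be told from that background. The nearest mutant peak was 2329598 bp from the AXIN1 start and had a score of 53.1. Those nearest to LEF1 and AXIN2 were 3677763 bp (score 93.1) and 6270285 bp (score 67.7) away. DVL2, DVL1 and TCF7L2 had theirs at 11546494, 14891844 and 20068791 bp. The other 5 start sites, those of DVL3, CTNNB1 and GSK3B on chromosome 3 and of APC on chromosome 5, lay on chromosomes with no mutant peak.

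The 16 wild-type peaks had a median score of 183 and ran from 75.3 to 1355. The score is the authors' deposited value for each peak, as the peak caller gave it. Over the whole wild-type list the median was 223, with quartiles of 109 and 408. Of the 16 peaks, 7 lay above the list median, 4 above the upper quartile and 3 below the lower quartile. The peaks of these genes were therefore spread over most of the range of the list and were not gathered at its top. The median width was 1176 bp (506 to 3210 bp), against 1116 bp over the list. The higher-scoring peaks were the wider ones, with a Spearman rho of 0.86 over the 16 peaks and 0.77 over the list. Both are descriptions across peaks of a single list.

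Peaks that covered a start site had a higher median score than those beside one. The 9 covering peaks had a median score of 297 and a median width of 1487 bp. The 7 others had a median score of 139 (75.3 to 332) and a median width of 784 bp. The ranges overlapped, and no test was made. A wider peak is likelier to contain a given base, and wider peaks scored higher, so the grouping itself is not independent of width or score. The groups come in part from different genes: GSK3B, AXIN2, CTNNB1 and APC had covering peaks only, and AXIN1 had none. Where a gene had both kinds, the covering peak scored higher at DVL1, DVL2 and LEF1 and lower at TCF7L2.

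Dishevelled proteins relay the signal from the receptors, and the 3 genes that encode them differed in the number and score of their peaks. DVL2 had the highest score of the 3. Its main peak on chromosome 17 at 7137287 to 7138376 scored 297 and was 1090 bp wide. It reached 513 bp upstream and 576 bp downstream of the start at 7137863, nearly even on both sides. It ranked 6535 of 17089, above 61.8% of the list. Upstream of it were a peak at 7140818 to 7141601 with a score of 139, and one at 7142480 to 7143463 with a score of 151. They began 2955 and 4617 bp from the start, on the side of PHF23, the next gene in RefSeq's GRCh38.p14 order. The distance of these upstream peaks from the start of PHF23 was not measured, so which gene they belong to was not determined. They are counted at DVL2 only because they lie within the window around its start. The 4617 bp of the last peak is the largest distance inside the 5 kb limit, and the nearest peaks outside it were 6096 bp from TCF7L2 (score 54.3) and 7408 bp from DVL2 (score 541).

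DVL1 had a weak and lopsided signal. Its peak on chromosome 1 at 1283039 to 1284525 was 1487 bp wide with a score of 116, above 26.8% of the list. It reached 1453 bp into the gene and 33 bp upstream of the start at 1284492. A second peak upstream at 1284907 to 1285412 scored 77.8 over 506 bp, with 381 bp between them, on the side of MXRA8 in RefSeq's GRCh38.p14 order. It was the narrowest of the 16 peaks, and 1.14% of the list was narrower. DVL1 lay among many peaks, with 65 within 1 Mb of its start, among which its own highest peak ranked 50.

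DVL3 had no wild-type peak within 5 kb of its start on chromosome 3 at 183873284. The nearest were 18939 bp downstream (score 91.0, 718 bp wide) and 19606 bp upstream (score 203, 1009 bp wide). These lie towards AP2M1 and EIF2B5, its protein-coding neighbours in RefSeq's GRCh38.p14 order. Within 1 Mb of DVL3 there were 24 peaks with a median score of 149. Peaks were thus called on both sides, and the list, which has no entry under a score of 50.01, says nothing of weaker signal at DVL3 itself.

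The destruction complex held both the weakest and the strongest of the occupied start sites. AXIN1, the main scaffold of the complex, had 2 narrow peaks on chromosome 16 that flanked its start at 402676. The downstream one at 401790 to 402339 was 550 bp wide and scored 75.3, and the upstream one at 402831 to 403474 was 644 bp wide and scored 86.2. They stood 337 and 155 bp from the start with 491 bp between them, and were above 13.3% and 17.5% of the list. AXIN1 is the only one of the 10 occupied start sites that no peak covered. Among the 57 peaks within 1 Mb, the higher of the 2 ranked 40.

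AXIN2, a second scaffold and itself a widely used target gene of the pathway, differed from AXIN1 in each of these measures. A single peak of 2789 bp covered its start at 63557740 on chromosome 17, from 63555679 to 63558467, and scored 911. It ranked 584 of 17089, and 98.0% of the list was narrower. It extended 2061 bp below and 727 bp above the start in chromosome coordinates. The next peaks outside the window were 423960 and 629299 bp away.

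GSK3B, the kinase that phosphorylates beta-catenin within the complex, had the highest score of all 16 peaks. The peak on chromosome 3 at 119812486 to 119814943 scored 1355, ranked 118 of 17089 and was 2458 bp wide. It covered the start at 119813264 and reached 1679 bp upstream and 778 bp downstream. The upstream side is that of GSK3B-DT, the next gene in RefSeq's GRCh38.p14 order.

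APC, which binds beta-catenin and axin, had a peak at each of its 2 starts. The peak at the upstream start (112043218 on chromosome 5) ran from 112042827 to 112044087, was 1261 bp wide and scored 182. That at the downstream start (112073556) ran from 112073056 to 112073844, was 789 bp wide and scored 112. They were above 42.3% and 25.8% of the list, and both lay below the list median. Within 1 Mb of either start there were 11 peaks with a median score of 370, so the 2 APC peaks ranked 7 and 10 among their neighbours.

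CTNNB1 encodes beta-catenin. It had a peak of score 806 on chromosome 3 at 41239975 to 41241447, which was 1473 bp wide and ranked 886 of 17089. The start at 41240942 lay inside it, with 967 bp of the peak upstream and 505 bp downstream. At 73.3% of the list its width was less extreme than its score, which was above 94.8% of the list. The next peaks were 583407 and 761709 bp away.

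LEF1 and TCF7L2, genes of DNA-binding partners of beta-catenin, each had 2 peaks. This was not particular to them, since DVL1, DVL2 and AXIN1 also had 2 or more, and AXIN2 and GSK3B had wide single peaks. LEF1 had the widest of the 16 peaks, 3210 bp on chromosome 4 at 109087481 to 109090690, and it scored 491. It reached 578 bp upstream of the start at 109090112 and 2631 bp into the gene, so 99.0% of the list was narrower. A second peak upstream at 109093951 to 109094886 scored 184 over 936 bp. LEF1-AS1 overlaps LEF1 in RefSeq's GRCh38.p14 annotation. The distance of the peaks from the start of LEF1-AS1 was not measured, so they were not assigned between these genes. LEF1, like AXIN2, is a known target gene of the pathway.

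TCF7L2, a factor of the same family, had adjoining peaks of like width with 360 bp between them. The one that covered the start at 114710009 on chromosome 10 ran from 114709513 to 114711110, was 1598 bp wide and scored 235. The one downstream ran from 114711471 to 114713133, was 1663 bp wide and scored 332. TCF7L2 was the only start site where the higher score did not belong to a covering peak, AXIN1 aside. The peak at 6096 bp, just outside the limit, lay on the same side.

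Ordered by the highest score within 5 kb, the start sites ran GSK3B (1355), AXIN2 (911), CTNNB1 (806), LEF1 (491), TCF7L2 (332), DVL2 (297), the upstream APC start (182), DVL1 (116), the downstream APC start (112) and AXIN1 (86.2), with DVL3 last for want of a peak. With 1 list there is no spread to say which neighbours in this order differ. Members of the destruction complex stood at both ends of the occupied sites, while LEF1 and TCF7L2 were next to each other and the Dishevelled genes stood below them.

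Each gene was also set against the peaks of its own neighbourhood, since HEK293T has an abnormal copy number that differs between regions and was not taken into account. The highest peak at AXIN2, CTNNB1 and GSK3B was also the highest within 1 Mb, among 14, 11 and 13 peaks. That at LEF1 was second of 10. In all, 6 of the 10 occupied start sites had a peak above the median of their neighbourhood, namely these 4, DVL2 and TCF7L2. The medians include the sites' own peaks, and at TCF7L2 the median of 235 was the score of its covering peak. Taking the highest peak of a site favours values above the median. The share of all peaks above their local median was not counted, so 6 of 10 is a description only. DVL1, AXIN1 and both APC starts stayed below it. The local medians themselves ran from 145 at AXIN1 to 370 at APC.

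**Figure D2:**
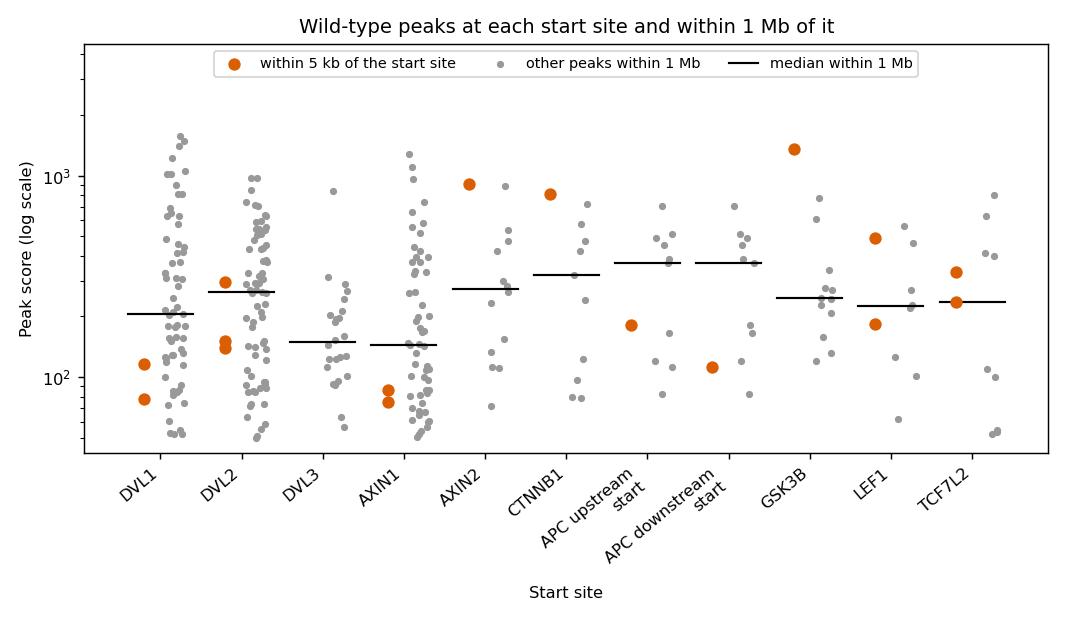
Score (log axis) of each wild-type peak within 5 kb of a start site (orange, left in each column) and of the other wild-type peaks within 1 Mb (grey, right), with the median of all of them as a black bar. Orange points stand at the top of their columns at AXIN2, CTNNB1 and GSK3B and below the bar at DVL1, AXIN1 and the APC starts. The DVL3 column has grey points only.

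The neighbourhood held from 10 peaks within 1 Mb of LEF1 to 74 within 1 Mb of DVL2. The median over the start sites was 6.5 peaks per Mb. The 5.7 per Mb over all chromosomes is a mean, so the 2 values are unlike measures. DVL2 (37), DVL1 (32.5), AXIN1 (28.5) and DVL3 (12) lay well above that mean, and the other sites had 5 to 7 per Mb. AXIN1, with 57 peaks within 1 Mb, lies less than 1 Mb from the end of its chromosome, so its window is shorter. Over the 10 occupied start sites, the number of peaks within 1 Mb and the highest score had a Spearman rho of -0.22, and over the whole list the rho was -0.0029. Both are descriptions, and peaks of one neighbourhood share their counts.

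At 5 of the 11 start sites, those of DVL1, DVL2, AXIN1, LEF1 and TCF7L2, 2 or more peaks lay within 5 kb. Of all positions 0.654% had so many, and of the positions with at least 1 peak 11.6%. Most start sites lay inside a peak, whereas a position with a peak can lie up to 5 kb from it. These shares are therefore not like for like with the start sites. At DVL1, AXIN1 and TCF7L2 the peaks were only 381, 491 and 360 bp apart. With peaks within 1 kb merged, only DVL2 and LEF1 keep more than 1. The shares of positions are of unmerged peaks, so whether close pairs are separate sites cannot be told. Of the 16 peaks, 11 (68.8%) had another wild-type peak within 5 kb, against 24.1% of the list. Part of this is set by the choice of peaks, since both members of a pair enter together. Across the list, peaks with another within 5 kb had a median score of 163 and those without one of 244. The single-peak start sites included the 3 highest scores (GSK3B, AXIN2 and CTNNB1), but also both APC starts.

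CpG number of the promoter was measured for the genes that could be matched in RefSeq's GRCh38.p14 promoter table. Entries were found for 9 of the 10 genes, all but AXIN2. The LEF1 entry belongs to a start inside the gene. It was left out of the CpG medians and of the comparison with scores, as were 2 inner starts of TCF7L2. This left 9 starts, each the outermost of its gene except the downstream APC start. Their distance from the hg19 start sites was not measured, so the counted bases may not be those directly before these sites. The APC starts were paired by their order and spacing, which was 30387 bp in the table and 30338 bp in the hg19 positions. The motif counted was CG, which reads the same on both strands, and 96.8% of protein-coding promoters had at least 1.

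The 9 promoters had a median of 27 CpG in the 250 bases before the start, against 16 over 22199 protein-coding promoters (quartiles 5 and 25). Of the 9, 8 lay above that median. The ratio of observed to expected CpG had a median of 0.962 in the 9 promoters and of 0.711 in all protein-coding ones. The protein-coding set keeps inner starts, whereas those left out here had few CpG, 8 at LEF1 and 5 and 4 at TCF7L2. The 9 promoters were thus CpG-rich as a group, with a wide range among themselves, but the sets of starts compared were unlike.

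DVL1 had the most CpG, 49 in 250 bases, more than 99.8% of protein-coding promoters. Its highest peak score was 116. DVL3 had 36, more than 93.9% of promoters, and no peak. AXIN1 had 35 and a highest score of 86.2. CTNNB1 had 34, GSK3B 27, and both TCF7L2 and the downstream APC start 21, with highest scores of 806, 1355, 332 and 112 in that order. DVL2 had 17 and the upstream APC start 12, the fewest of the 9, with scores of 297 and 182. Promoters with 34 to 36 CpG therefore ranged from no peak at DVL3 to a score of 806 at CTNNB1. Over the 8 starts with a peak and a matched promoter, CpG number and highest score had a Spearman rho of -0.17, a description over few starts. The highest peak within 5 kb need not lie over the counted bases. At TCF7L2 it began 1462 bp downstream of the start, and the covering peak scored 235.

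The letters GGGCGG, the core of the GC box to which Sp1 binds, were counted on both strands of the same 250 bases, matches that share bases included, and each match holds 1 of the CpG already counted. AXIN1 had 8, more than 99.2% of protein-coding promoters, of which 53.7% had at least 1. DVL1 and TCF7L2 had 5 each, CTNNB1 and DVL3 3 each, GSK3B 2, DVL2 and the downstream APC start 1 each, and the upstream APC start 0. CTNNB1 and DVL3 thus had like numbers of both motifs, with a score of 806 at the first and no peak at the other. A match describes the sequence and is not a measured site. Methylation of these promoters in HEK293T was not measured in these data, and no sequence under a peak could be read, since no hg19 genome was used here.

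**Figure D3:**
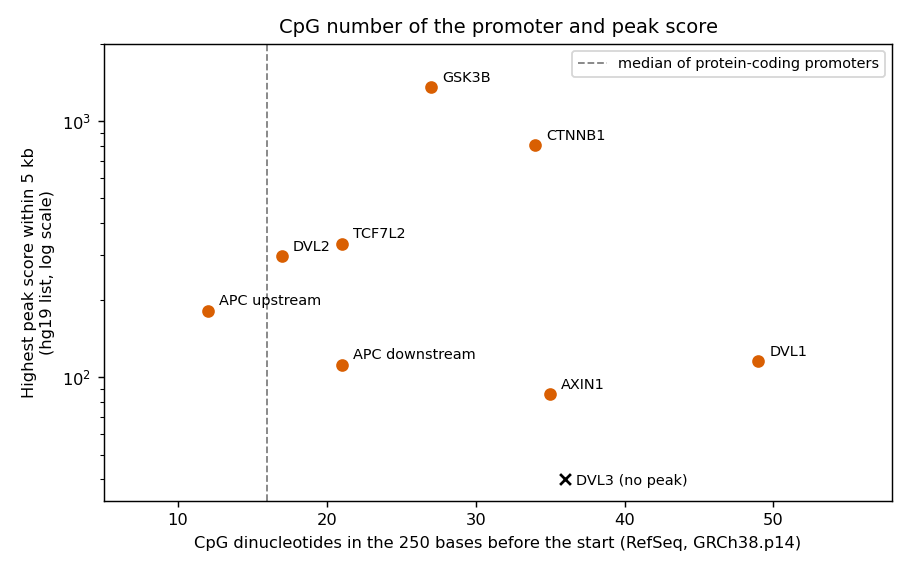
Number of CpG in the 250 bases before the start (RefSeq, GRCh38.p14) against the highest wild-type peak score within 5 kb (log axis) for 8 start sites, with DVL3 as a cross at the foot of the plot because it has no peak and no score. The dashed line is the median of protein-coding promoters, 16. DVL1 is farthest right with 49 CpG and a score of 116, and GSK3B is highest with 27 CpG and a score of 1355.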

How the data were processed

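ChIP-seq peak lists of Myc-IdaxDBM and wild-type Myc-Idax, each over empty-vector HEK293T cells, were used. Per the submitters' processing notes, hg19, MACS 1.4.1 and Bowtie 0.12.7 were used. How the authors treated replicates is not stated in the sources. The score deposited by the authors for each peak has the form of the MACS score, which rises as the p-value falls. Its scale is not stated in the files, and it was used only within a list. Read depth is unknown. The start positions of peaks were converted from 0-based to 1-based.

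Members are the peaks with at least 1 bp within 5 kb of hg19 start sites given for the 10 genes. Genes and measures were chosen with earlier results of these data known. All 10 genes are named with all their peaks. The background was taken at positions every 10 kb from first to last wild-type peak of each chromosome, with unassembled sequence not masked. Window counting was tested on simulated peaks. Strand, neighbouring genes and promoters came from RefSeq tables of GRCh38.p14, of which only the positions of printed sequences are given. Exons and introns were not assigned. Alternatives were windows of 1, 2 and 10 kb, a minimum score of 100, merging within 1 kb and other backgrounds. A further list of Wnt genes was not analysed here, since no hg19 annotation was used. Computations used matplotlib 3.10.9, SciPy 1.17.1, pandas 2.3.3, numpy 2.4.6 and Python 3.11.15.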

Additional observations from a re-analysis of the deposited data

How the results depend on the processing

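With 1 list per construct, leaving out a replicate was not possible. No paired analysis was possible because the lists carry no replicate numbers. Of 20 alternatives, 18 stayed within 1.5 times the value they bear on. The number of occupied start sites was 10 with windows of 1, 2 and 10 kb and without peaks narrower than 500 bp. It was 9 when the start had to lie inside a peak, which removed AXIN1, and 9 at a minimum score of 100, which removed AXIN1 as well. The 16 peaks became 12 within 1 kb, 18 within 10 kb and 12 after merging within 1 kb. The mutant list had 0 occupied start sites within 10 and 100 kb as well. The median score of the peaks was 297 when only peaks covering a start were taken, against 183, because the weaker peaks beside the starts then drop out. The median was 266 when the nearest peak of each start site was taken. In both cases it moves from below to above the list median of 223. The share of positions with a wild-type peak was 13.6% within 1 Mb of the start sites, against 5.65% over all chromosomes. What a missing peak at DVL3 can mean is limited, since scores under 50.01 are not listed and read depth is unknown.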

Other observations

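Beyond the 5 kb window, the nearest wild-type peak on each side was compared with the highest one at the gene for the 3 start sites with the most peaks within 1 Mb. At DVL1, whose own highest score was 116, these scored 178 at 23957 bp and 1396 at 25101 bp. At DVL2, with a score of 297 of its own, they scored 541 at 7408 bp and 292 at 14060 bp. At AXIN1, with 86.2 at the gene, they scored 265 at 17586 bp and 64.5 at 27735 bp. Both neighbours thus scored higher than the gene's own peaks at DVL1, and 1 of the 2 did at DVL2 and AXIN1. These peaks were not assigned to genes, and the start sites were chosen after the values were seen.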
